A study of Homo sapiens with 6 samples.

Results

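Protein-coding genes of human chromosome 11 were followed across RNA sequencing libraries of SUM159 cells, and were split by gene start into those below and those above 28 Mb of the chromosome (GRCh38). Genes entered when their mean level over the 6 libraries was 8 CPM (a count scaled to the library size) or more. Of these, 33 genes of other pathways were left out by name, a choice made with earlier results of these data known. CPM was adjusted for library composition. This gave 518 members of the 1307 protein-coding chromosome 11 genes in the table of 58336 genes, 106 below and 412 above the split, and all 518 passed the filter on low counts. The split was placed with values of these same libraries known, so the differences between its sides are described and not tested. SUM159 is a triple-negative breast cancer line, and the cells are grouped in the labels by ITGB4, the integrin beta-4 subunit. Dishes gave ITGB4-high cells (n = 1) and ITGB4-low controls (n = 2, from clones 1 and 3). Mouse lungs gave ITGB4-low cells that had been injected along with LM2, a subline of MDA-MB-231 breast cancer cells selected for lung metastasis (n = 2, from clones 1 and 3). Lungs also gave ITGB4-low cells of clone 1 after bleomycin, a drug that injures the lung, had been given through the trachea (n = 1). Lung cells spent a night in culture after dissociation and were then sorted for tdTomato, whereas ITGB4-high and control cells came straight from dishes, so the passage through the lung goes with the trigger. Each ITGB4-low library is 1 clone under 1 condition, and the number of mice behind a lung library is not given in the sources used here.

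Chromosome 11 is gene-rich. Its short arm carries the imprinted cluster near the tip, where some genes are read from the copy of 1 parent only, as well as ribosomal and vesicle-coat genes. Its long arm carries the gene-dense band around the menin and cofilin genes, the region of the cyclin D gene that is amplified in some breast cancers, and the checkpoint kinases ATM and CHEK1. Breast cancer lines often carry chromosomes that are rearranged, and in such cells the RNA of neighbouring genes can move together. DNA copy number was not measured here, and its part in what follows was not tested.

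The stretches just upstream of 4 genes are printed because the results turn on these neighbours: PRMT3 and HTATIP2 lie side by side near the edge of the raised stretch and behaved differently, LIN7C is the member closest below the split, and DDX10 lies in the stretch that was highest in ITGB4-high cells. They are RefSeq sequences (GRCh38.p14), 5' to 3' on the strand of the gene and cut where the GENCODE gene begins. Capitals mark CCAAT and GGGCGG, on either strand. TATAAA was searched as well and was found in none of the 4.
PRMT3 (chr11:20387466-20387529, plus strand): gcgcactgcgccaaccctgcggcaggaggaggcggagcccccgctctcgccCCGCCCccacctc
HTATIP2 (chr11:20363464-20363684, plus strand): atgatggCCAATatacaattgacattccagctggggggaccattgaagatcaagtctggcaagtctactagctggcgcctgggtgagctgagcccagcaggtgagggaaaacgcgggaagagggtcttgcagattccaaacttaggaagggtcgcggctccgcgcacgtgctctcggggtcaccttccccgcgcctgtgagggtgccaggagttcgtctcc
LIN7C (chr11:27506774-27507019, minus strand): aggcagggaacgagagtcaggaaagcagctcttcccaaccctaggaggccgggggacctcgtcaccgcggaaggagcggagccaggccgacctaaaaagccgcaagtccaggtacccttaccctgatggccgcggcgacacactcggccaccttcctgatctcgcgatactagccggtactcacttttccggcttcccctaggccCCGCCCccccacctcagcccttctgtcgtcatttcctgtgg
DDX10 (chr11:108664819-108665024, plus strand): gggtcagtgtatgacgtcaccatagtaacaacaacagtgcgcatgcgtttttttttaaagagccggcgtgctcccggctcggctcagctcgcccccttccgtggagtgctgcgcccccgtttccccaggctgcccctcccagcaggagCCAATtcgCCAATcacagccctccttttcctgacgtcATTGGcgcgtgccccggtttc
RefSeq held a promoter for 87 members below and 350 above the split. In the 250 bases upstream of the RefSeq start, GGGCGG was present in 71.3% and 70.6% of them, CCAAT in 36.8% and 38.3%, and TATAAA in 2.30% and 3.14%. Over 27305 RefSeq promoters the shares were 42.3%, 33.04% and 11.1%. The median GC content was 66.8% below, 64.0% above and 58.0% over all promoters. In the shares of GGGCGG and TATAAA the sides were closer to each other than to all promoters.

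Total counts ran from 13607953 to 22222121 per library. A floor of 3 counts, which a gene at 0 may still reach, corresponded to 0.138 to 0.232 CPM, and such floors cover counting error only. ITGB4 stood at 383 CPM in ITGB4-high cells, at 25.9 and 24.6 in control clones 1 and 3, and at 470 (LM2 clone 1), 441 (LM2 clone 3) and 305 (bleomycin). The ITGB4-high library was above both controls, and so were the lung libraries that started from ITGB4-low clones. VIM was between 2171 and 3596 CPM and PGR at 0 in every library. ESR1 was at 0.415 CPM or less, and ERBB2 was between 27.9 and 66.7 CPM. Among the markers of other cells, CDH5, AIF1, SFTPC, SFTPA1, CD3E, MS4A1, HBA1 and HBA2 were at 0 throughout, but others were not. PTPRC, a leukocyte marker, was at 0.207 and 0.184 CPM in controls, 2.32 and 0.255 for LM2 (clones 1 and 3), and 2.69 after bleomycin. The endothelial marker PECAM1 was at 1.80 and 2.02 CPM in controls and 9.41 after bleomycin, whereas KDR was at 70.7 and 105.1 in controls and 0.155 to 6.51 in lung cells. The summed endothelial list was at 72.7 and 107.5 CPM in controls and 2.55 to 11.2 in lung libraries, and the summed alveolar list at 6.43 and 5.74 in controls and 3.65 to 4.28 in lung libraries. The summed macrophage list was at 1.87 and 0.597 CPM in controls, 3.48 and 0.894 for LM2 (clones 1 and 3), and 5.12 after bleomycin. The fibroblast list was at 124 and 161 CPM in the cultured controls, 199 in ITGB4-high cells and 499 to 822 in lung libraries. Its genes did not move together. COL1A1 was the highest in LM2 clone 3, and LUM was at 0.256 or less in every library. PDGFRA was at 32.5 and 35.1 in controls, 448 and 27.5 in LM2 clones 1 and 3, 221 after bleomycin and 130 in ITGB4-high cells. COL3A1 was at 38.8 and 74.3 in controls, 14.8 and 70.5 in LM2 clones 1 and 3 and 44.4 after bleomycin. DCN was at 16.7 and 21.7 in controls, 14.6 and 12.8 in LM2 clones 1 and 3 and 39.2 after bleomycin. The lungs were of mice and the reads were aligned to a human build, so mouse cells may be missed by these markers. No marker list was made for LM2 cells. The part of other cells in the results was not tested.

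In the bleomycin library, the members below 28 Mb stood higher as a set, but the 4 from 23 to 28 Mb did not (median -0.17). The log2 ratio of each gene's CPM to that in control clone 1 (0.5 CPM added to both) had a median of 0.59 over the 106 members, with a range between quartiles of 0.26 to 0.78. Over all 15673 genes tested the median was -0.02, so the members below 28 Mb lay 1.52-fold above it. Of the 106 members 89 were higher than in control clone 1 (84.0%), beside 48.1% of all genes tested. The 412 members above the split had a median of -0.04, and 193 of them were higher (46.8%). The medians of the sides differed by 0.62. The width of the distribution hardly differed, with a range between quartiles of 0.52 below the split, 0.50 above it and 0.49 in 8974 protein-coding genes of other chromosomes at the same minimum. The members below the split were thus spread about as widely as other genes, and 17 of the 106 were lower.

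**Figure D1:**
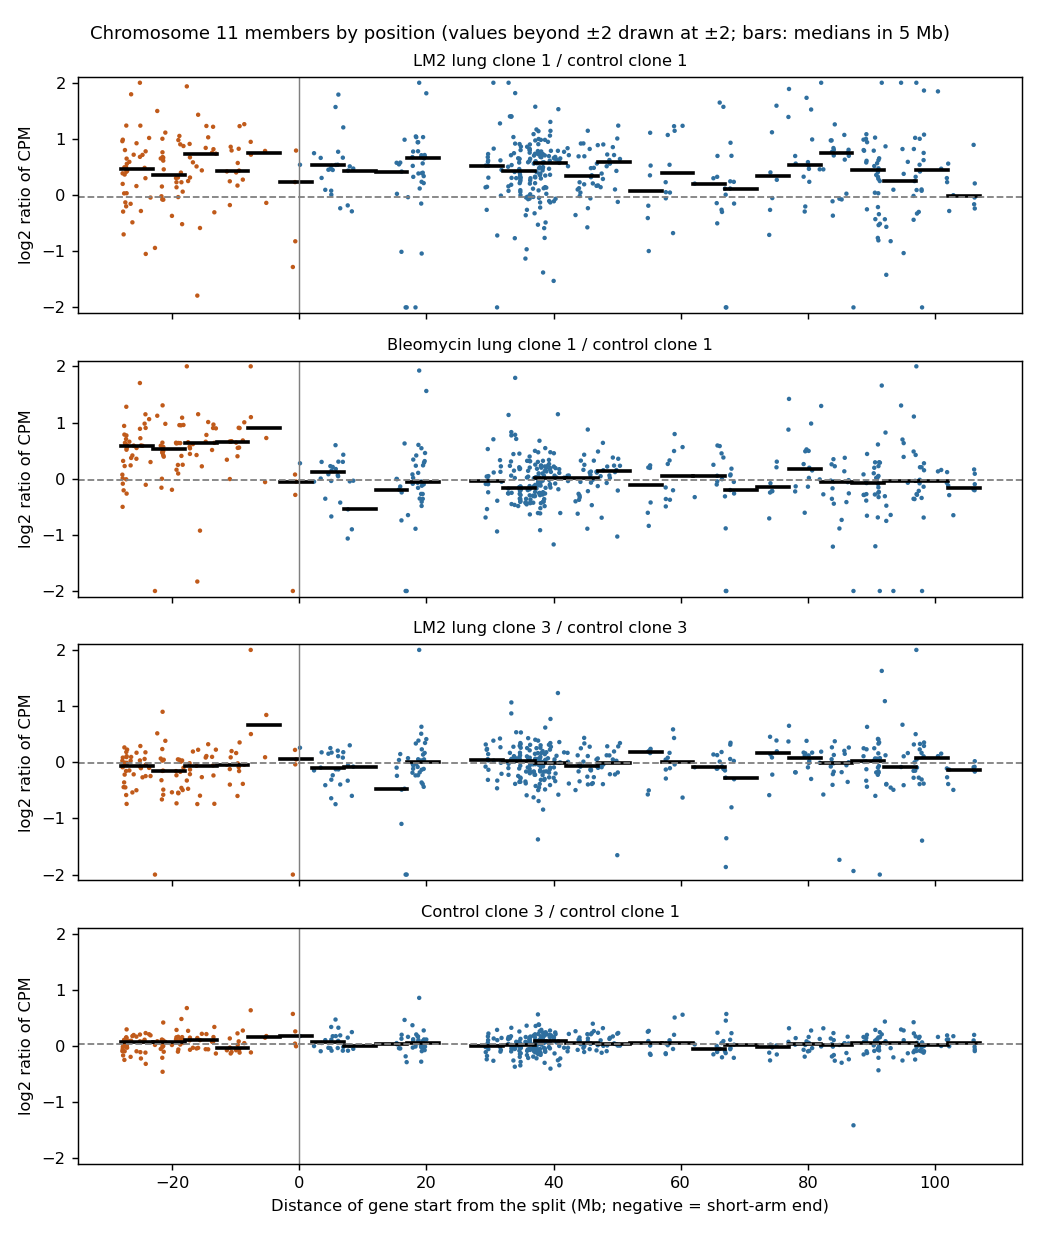
Log2 ratio of CPM (vertical axis) of each chromosome 11 member against the distance of its start from 28 Mb (horizontal axis, Mb), in 4 library pairs. Points are genes, orange below and blue above the split, black bars are medians in bins of 5 Mb with 4 or more members, and the dashed line is the median of all genes tested. The bleomycin bars are highest to the left of the split, but the bar from 25 to 30 Mb is at -0.05. Some bleomycin bars to the right lie above the line too, up to 0.17. LM2 clone 1 stands above the line along most of the chromosome, and the other pairs lie near it in most bins.

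The shift in the bleomycin library covered the tip of the short arm and not the rest of it. It was 0.57 in the first 10 Mb (66 members, 56 higher) and 0.65 from 10 to 20 Mb (32 members, 29 higher). It was 0.07 from 20 to 30 Mb (9 members, 5 higher), 0.04 from 30 to 40 Mb (23 members, 13 higher) and -0.07 from 40 to 50 Mb (38 members, 15 higher). The members nearest the split put the edge before 28 Mb but did not fix it closely. None of them starts between SVIP and FIBIN, which are given below. Between 15 and 20 Mb 12 of 13 members were higher, with a median of 0.66. PRMT3, an arginine methyltransferase at 20.39 Mb, was at 227 CPM against 105.8 and 97.5 in control clones 1 and 3. SVIP, an inhibitor of degradation at the endoplasmic reticulum that starts at 22.81 Mb, had a ratio of 0.72, while FANCF of the Fanconi anaemia complex, at 22.62 Mb, was at -0.06. Of the 4 members between 23 and 28 Mb, 1 was higher, and their median was -0.17. These were FIBIN (-3.06), CCDC34 (0.07), the R-spondin receptor LGR4 (-0.29) and the polarity scaffold LIN7C (-0.05). Just above the split were METTL15 (0.27), a methyltransferase of mitochondrial ribosomal RNA, ARL14EP (-0.05), DNAJC24 (0.00), which acts in diphthamide synthesis, and ELP4 (0.30) of the Elongator complex. With the split moved to 24 Mb the medians were 0.59 and -0.04.

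By function, genes of protein synthesis below the split moved with the whole side, of which 84.0% were higher with bleomycin (median 0.59). RPLP2, of the ribosomal stalk, was at 543 CPM against 318 and 349 in the controls. RPL27A of the large subunit was at 636 against 412 and 458 CPM, and RPS13 of the small subunit at 537 against 339 and 371 CPM. In each of these 3 genes the bleomycin library was the highest of the 6. Of 8 translation genes below the split 7 were higher in the bleomycin library, the exception being EIF3F (-0.20), and their median was 0.61. The 10 translation genes above the split had a median of 0.04, and RPS3, the most abundant of them, was at 1035 CPM against 1004 and 1074. Ribosomal protein genes have processed copies elsewhere in the genome, so their counts are uncertain to the extent that reads were shared.

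Trafficking and lysosomal genes are given beside the 84.0% of all members below and 46.8% above the split that were higher with bleomycin. All 5 below the split were higher (median 0.66), and 5 of 18 above it were (median -0.26). COPB1, a subunit of the coat of Golgi vesicles, was at 390 CPM against 209 and 219, and TSG101, which sorts cargo into multivesicular bodies, at 123 against 65.2 and 68.9. The lysosomal protease genes CTSD (292 against 219 and 247 CPM) and TPP1 (90.8 against 61.2 and 65.5 CPM) were highest in the bleomycin library. Above the split the lysosomal phosphatase ACP2 had a ratio of -0.49 and the collagen chaperone SERPINH1 one of -0.70.

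The imprinted cluster at the tip lay within the raised stretch. All 6 of its members were higher in the bleomycin library, with a median of 0.66, beside 84.0% and 0.59 over all members below the split. PHLDA2, which restrains placental growth, was at 36.9 CPM against 10.998 and 11.7, the histone chaperone NAP1L4 at 232 against 125 and 144, the cysteinyl-tRNA synthetase CARS at 405 against 246 and 227, and the lipid-transfer protein OSBPL5 at 243 against 161 and 138. TSSC4 (0.55) and the tetraspanin CD81 (0.35) completed them. CDKN1C and IGF2, imprinted growth regulators of the same cluster, were not members. Among the most abundant genes of the side, the nuclear import receptor IPO7 was at 1134 CPM against 587 and 637, and the initiation factor EIF4G2 at 1944 against 1432 and 1586.

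In LM2 clone 1 most of the chromosome stood higher, with similar medians on both sides of 28 Mb. The median ratio to control clone 1 was 0.49 below the split, where 83 of 106 members were higher, and 0.48 above it, where 322 of 412 were (78.3% and 78.2%, beside 46.9% of all genes tested). Against the median of all genes tested, which was -0.04, the sides lay 1.44-fold and 1.43-fold higher. Bins of 10 Mb from the tip to 80 Mb had medians of 0.44 to 0.63. Then they were 0.29 from 80 to 90 Mb (16 members), 0.16 from 90 to 100 Mb (20), 0.50 from 100 to 110 Mb (22), 0.58 from 110 to 120 Mb (51), 0.33 from 120 to 130 Mb (35) and -0.02 beyond 130 Mb (8). In LM2 clone 3 the medians over control clone 3 were -0.07 below and -0.00 above the split, with 42 and 201 members higher, beside 48% of all genes tested. The LM2 libraries therefore differed, and a mean over them describes neither.

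By level, below the split in the bleomycin library the median was 0.51 for members of 8 to 32 CPM (36 genes), 0.57 from 32 to 128 CPM (45 genes) and 0.67 from there upward (25 genes). Above the split in LM2 clone 1 it was 0.38, 0.46 and 0.56 in the same classes (172, 167 and 73 genes). Below the split in LM2 clone 1 it was 0.29, 0.56 and 0.51, lowest in the lowest class.

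The bleomycin and LM2 clone 1 ratios share control clone 1. The median ratio of control clone 3 to control clone 1 was 0.07 below the split, 0.04 above it and 0.03 over all genes tested. The bleomycin library was also set against LM2 clone 1 directly, without any control. There the members below the split had a median of 0.04, and those above it one of -0.47, with 336 of 412 lower in the bleomycin library, beside 48.5% of all genes tested. Summed over members, the level below the split was 15097 CPM for LM2 clone 1 and 15381 after bleomycin, and 10036 to 10883 in the other 4. Above the split it was 50617 CPM in LM2 clone 1 and 36443 to 37856 in the other 5.

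**Figure D2:**
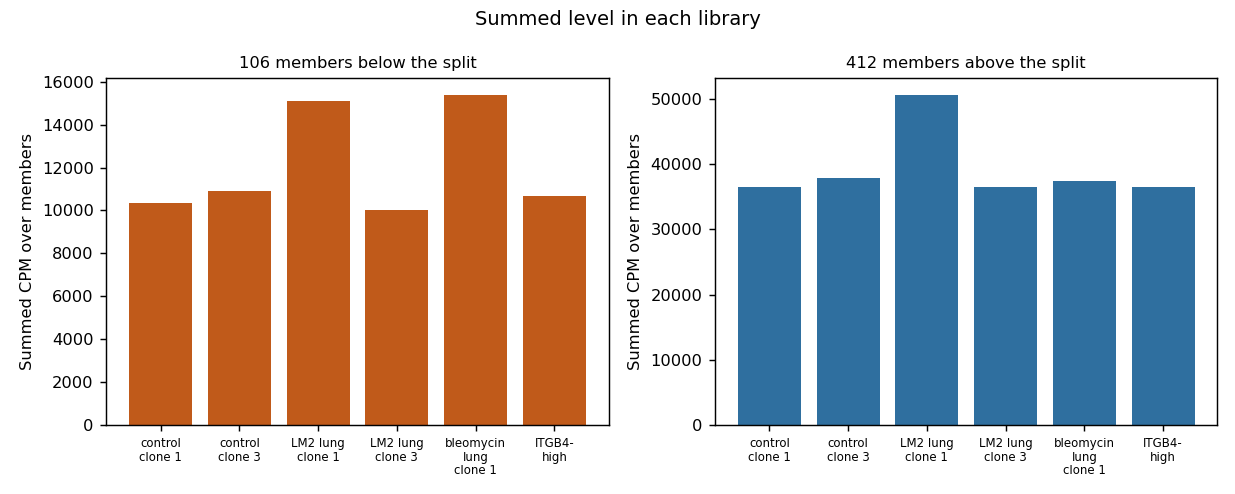
Summed CPM over the members (vertical axes, from 0) in each of the 6 libraries, below the split (left) and above it (right), 1 bar a library and no error bars. LM2 clone 1 is high on both sides, the bleomycin library only on the left at 15381 CPM.

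Medians of other whole chromosomes are given as a description, and stretches within them were not examined. Over protein-coding genes at the same minimum, the 22 other chromosomes had medians between -0.05 and 0.12 in the bleomycin library, the highest being chromosome 13 (181 genes). In LM2 clone 1 they lay between -0.08 and 0.39, and chromosomes 4 (0.39, 391 genes) and 13 (0.31, 181 genes) stood next to chromosome 11. The difference between the sides was thus hidden in the median of whole chromosome 11 in the bleomycin library. That median was 0.05 over 551 genes, the 33 left out by name included.

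**Figure D3:**
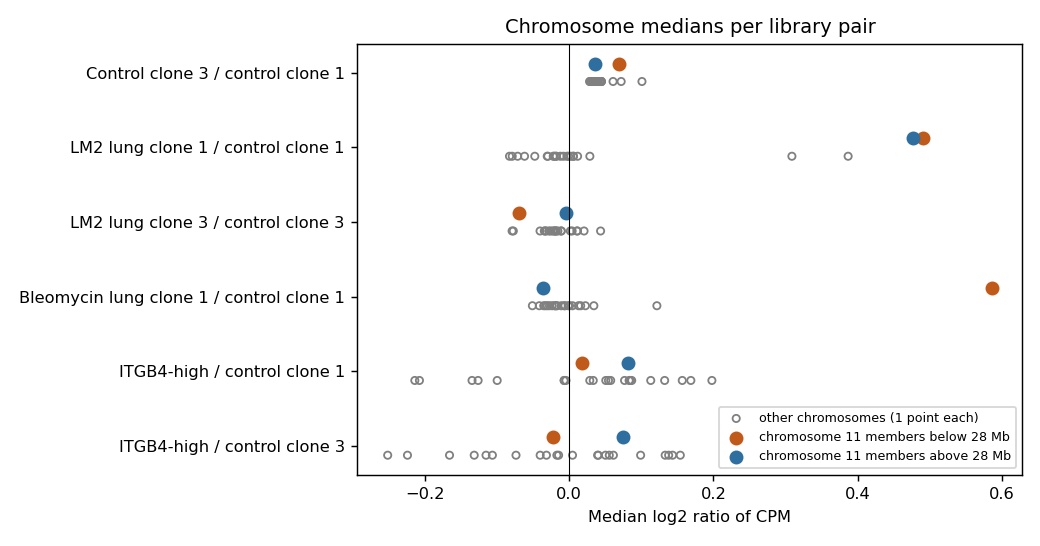
Median log2 ratio of CPM (horizontal axis) in 6 library pairs, for members below (orange) and above (blue) 28 Mb and for each other chromosome (open circles, protein-coding genes at the same minimum of 8 CPM). The orange point of the bleomycin pair is at 0.59 and the points of LM2 clone 1 are at 0.49 and 0.48; the sides were cut with these values known, while the circles are whole chromosomes.

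Single genes seldom passed a test across all genes. In edgeR's quasi-likelihood test with Benjamini-Hochberg adjustment over 15673 genes, 0 members passed at an adjusted p under 0.05 in LM2 lung cells against control and 0 in bleomycin lung cells against control, where 0.0319% and 0.0255% of all genes did. DESeq2 called 15 and 19 members there (beside 4.48% and 3.94% of all genes) and limma-voom 0 and 0. For ITGB4-high and all lung cells against control DESeq2 called 63 and 34 members, beside 11% and 7.95% of all genes. At an unadjusted p under 0.05 in LM2, 5 members below the split were higher and 7 lower, and above it 37 and 16, beside 7.29% and 8.33% of all genes. With bleomycin, 26 of 106 members below the split were higher and 3 lower (24.5% and 2.83%), beside 6.65% and 7.8% of all genes, and above it 17 were higher and 33 lower of 412. Nothing is read from these shares, since this comparison may have placed the split. The spread in that fit comes from both pairs of libraries, and the LM2 pair differed widely. Without LM2 clone 1, 72 of 106 members below the split passed as higher with bleomycin and 6 as lower, beside 13.4% and 14.7% of all genes, and without LM2 clone 3, 72 and 5 did, beside 13.2% and 14%. Above the split 45 members passed as higher and 67 as lower without LM2 clone 1, and 44 and 63 without LM2 clone 3. These fits keep 1 residual degree of freedom, from the control pair. Nothing is read from them about the split, which the same bleomycin values may have placed. In LM2 cells against control, 57 members passed without LM2 clone 1 and 358 without LM2 clone 3, beside 11.6% and 40.8% of all genes.

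TSPAN18, a tetraspanin gene (ENSG00000157570, chromosome 11, 44726465 to 44932421, plus strand), was the 1 member that passed in all lung cells against control, where 0.498% of all genes did. It stood at 41.1 and 36.03 CPM in control clones 1 and 3, at 0.619 and 2.30 in LM2 clones 1 and 3, at 0.640 in the bleomycin library and at 1.09 in ITGB4-high cells. Both controls were far above the other 4 libraries, and the gene reached the 8 CPM minimum through the controls alone. It fell by 4.99 on the log2 scale (SE 0.53, edgeR adjusted p = 0.0363; 0.0440 with a replicate block for clone). With that block 0.249% of all genes passed. The call was lost without the bleomycin library (adjusted p = 0.141) and without control clone 1 (0.280) or control clone 3 (0.337). Without LM2 clone 1 or LM2 clone 3, 11 and 39 members passed, beside 2.5% and 6.55% of all genes. TSPAN18 starts between 40 and 45 Mb, where members in LM2 clone 1 had a median ratio of 0.42 to control clone 1. Of the 9 members there 6 were higher and 3 lower, so TSPAN18 lay on the side of the fewer. Its overlapping neighbour TP53I11 was lower in LM2 clone 1 as well. TP53I11, a p53-induced gene whose annotated start is at 44.89 Mb, had values of 55.4 and 45.2 CPM in controls, 3.87 and 10.5 in LM2 clones 1 and 3, 5.57 with bleomycin and 1.97 in ITGB4-high cells, and did not pass (edgeR adjusted p = 0.0557 in all lung cells, 0.0704 in ITGB4-high). TP53I11 too reached the 8 CPM minimum through the controls. It lies on the minus strand and overlaps TSPAN18 in position, and whether reads were counted by strand is not given in the sources used here.

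HTATIP2, a short-chain dehydrogenase gene once described as a metastasis suppressor, followed another pattern from that of its neighbour PRMT3. It was at 0 and 0.275 CPM in control clones 1 and 3 and at 0.464 in LM2 clone 1, but at 23.4 in LM2 clone 3, 23.8 in the bleomycin library and 23.3 in ITGB4-high cells. The libraries thus fell into a low and a high set that did not follow the groups. HTATIP2 reached the 8 CPM minimum through the high set alone. It did not pass (edgeR adjusted p = 0.299 in LM2, 0.293 in bleomycin and 0.153 in ITGB4-high cells against control), but a replicate block for clone called it in all 3 (edgeR adjusted p = 0.0336, 0.0217 and 0.0144), where 0.23%, 0.051% and 2.32% of all genes passed. That fit keeps 1 residual degree of freedom and places the ITGB4-high library, which has no clone number, midway between the clones. Since control clone 1 is at 0, no fold is given. PRMT3 stood at 175 CPM after LM2 in clone 1, 138 after LM2 in clone 3, 227 with bleomycin and 119.8 in ITGB4-high cells, so the levels of the 2 neighbours were ordered differently over the libraries.

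Other members differed from the own control in the same direction in all 3 lung libraries, and those described next did not pass over all genes. SLC37A2, a sugar-phosphate transporter, was at 3.46 and 3.21 CPM in controls and at 65.5, 22.7 and 74.6 after LM2 (clones 1 and 3) and after bleomycin (edgeR adjusted p = 0.0588 in all lung cells). The cell adhesion gene NECTIN1 was at 12.5 and 14.5 CPM in controls and 183, 45.8 and 40.6 in the same lung libraries (0.150), and LRP4, an agrin co-receptor, at 1.45 and 3.03 against 22.2, 15.002 and 6.91 (0.108). SLC37A2 and LRP4 reached the 8 CPM minimum through libraries other than the controls. CADM1, an adhesion molecule of the immunoglobulin family, was at 13.1 and 4.59 CPM in controls and 0.542, 0.830 and 0.384 in lung cells (0.0567). It was at 67.0 in ITGB4-high cells, so lung and ITGB4-high cells lay on opposite sides of the controls. CADM1 reached the 8 CPM minimum through the ITGB4-high library. Below the split, DKK3, a secreted relative of the WNT inhibitors, was at 246 and 271 CPM in controls and 70.6, 161 and 68.6 in lung cells (0.156), and FIBIN at 40.9 and 61.0 against 16.6, 13.3 and 4.48 (0.119). PARVA, which links integrins to actin, was at 63.9 and 68.6 CPM against 42.4, 45.3 and 33.4 (0.113). DKK3 and PARVA, which start between 10 and 20 Mb, were lower in the bleomycin library, where 29 of 32 members of that bin were higher. Inflammatory caspase CASP1 was at 12.8 and 16.02 CPM against 48.7, 25.4 and 35.1 (0.111).

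**Figure D4:**
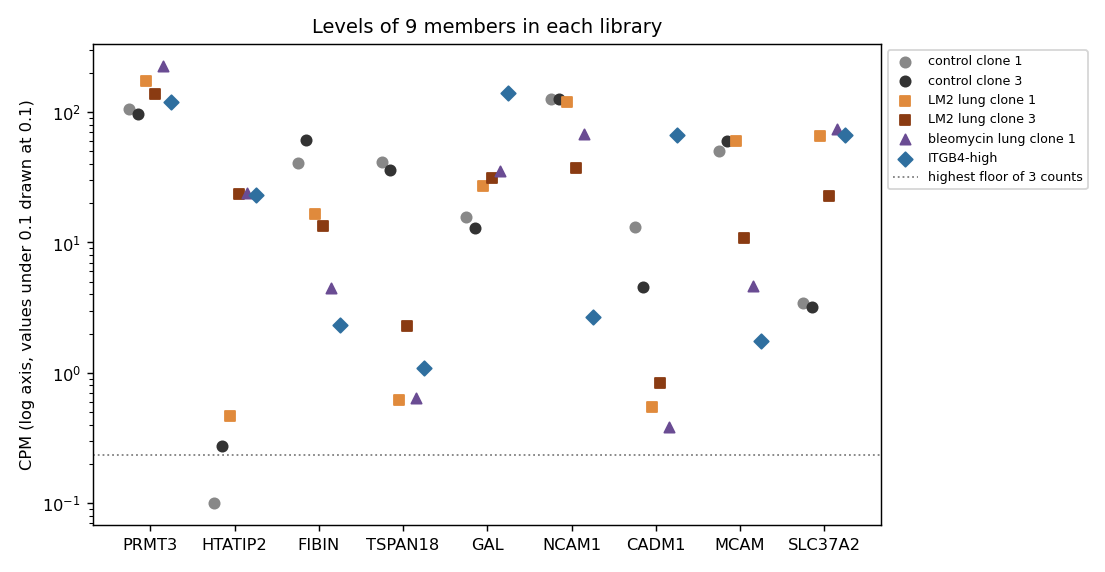
CPM (vertical log axis, values under 0.1 drawn at 0.1) of 9 members in each of the 6 libraries, 1 point a library; the dotted line is the highest floor of 3 counts, 0.232 CPM. TSPAN18 is far higher in both controls than elsewhere, and HTATIP2 is near the floor in the controls and LM2 clone 1 and at 23.3 to 23.8 CPM in the other 3.

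ITGB4-high cells had similar medians on both sides of 28 Mb. Their medians over control clone 1 were 0.02 below and 0.08 above the split, and over control clone 3 -0.02 and 0.08. Of the members above it 227 were higher than each control (55.1%, beside 49.5% and 48.8% of all genes tested). The range between quartiles above the split was 0.72 and 0.75, beside 0.80 and 0.88 over all genes tested and 0.68 and 0.74 over protein-coding genes of other chromosomes at the same minimum. GAL, the neuropeptide galanin (ENSG00000069482, 68683779 to 68691175, plus strand), was the 1 member that passed against control, where 0.0893% of all genes did. It was at 141 CPM in ITGB4-high cells, 15.6 and 12.9 in controls, 27.2 and 31.1 in LM2 clones 1 and 3 and 35.1 with bleomycin (log2 fold change 3.31, SE 0.20, edgeR adjusted p = 0.0414; 0.330 and 0.371 without control clone 1 or 3). With the replicate block 15 members passed, beside 2.32% of all genes, 4 higher and 11 lower. Among them were HTATIP2, SLC37A2, LRP4 and GAL as higher, and the protease CTSD, PARVA, FIBIN and the sorting receptor SORL1 as lower. HTATIP2, SLC37A2 and LRP4 were under the 8 CPM minimum in both controls. Their entry as members thus depended on libraries where they were high. Without LM2 clone 1 or LM2 clone 3, 263 and 261 members passed, beside 42% and 41.6% of all genes.

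Within the long arm, 3 stretches were picked out for ITGB4-high cells after bins of 5 Mb had been seen, so they are described and not tested. From 105 to 110 Mb all 14 members were higher than each control, with medians of 0.84 and 0.87. The RNA helicase DDX10 was at 110 CPM against 35.3 and 34.3, the splicing-related gene CWF19L2 at 116 against 49.8 and 47.4, and the checkpoint kinase ATM at 258 against 150 and 141. In these 3 genes ITGB4-high cells were the highest of the 6 libraries, and none passed (edgeR adjusted p = 0.0964, 0.0618 and 0.101). In the same stretch the medians were 0.54 (LM2 clone 1, 12 of 14 higher) and 0.17 (bleomycin, 9 of 14 higher). Beyond 130 Mb 7 of 8 members were lower in ITGB4-high cells than in each control, with medians of -0.88 and -0.84, beside 50.4% and 51.1% of all genes tested. LM2 clone 3 had 7 of these 8 lower (median -0.14), the bleomycin library 6 (-0.16) and LM2 clone 1 5 (-0.02). There the sorting nexin SNX19 was at 50.9 CPM against 99.9 and 113, and the retromer subunit VPS26B at 38.6 against 69.9 and 69.1. The exception was the junction molecule JAM3, at 39.1 against 18.5 and 19.8 CPM. From 115 to 125 Mb 34 of 49 members were lower than each control, with medians of -0.37 and -0.27. The histone gene H2AFX was at 32.9 CPM there against 105 and 116, the adhesion molecule MCAM at 1.75 against 50.3 and 59.6, and SORL1 at 6.78 against 68.3 and 59.2. MCAM was also uneven in lung cells, at 59.9 CPM in LM2 clone 1 but 10.8 in LM2 clone 3 and 4.61 with bleomycin. The neural adhesion molecule NCAM1, at 112.96 Mb, was at 2.697 CPM in ITGB4-high cells against 125 and 127 (edgeR adjusted p = 0.0740).

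**Figure D5:**
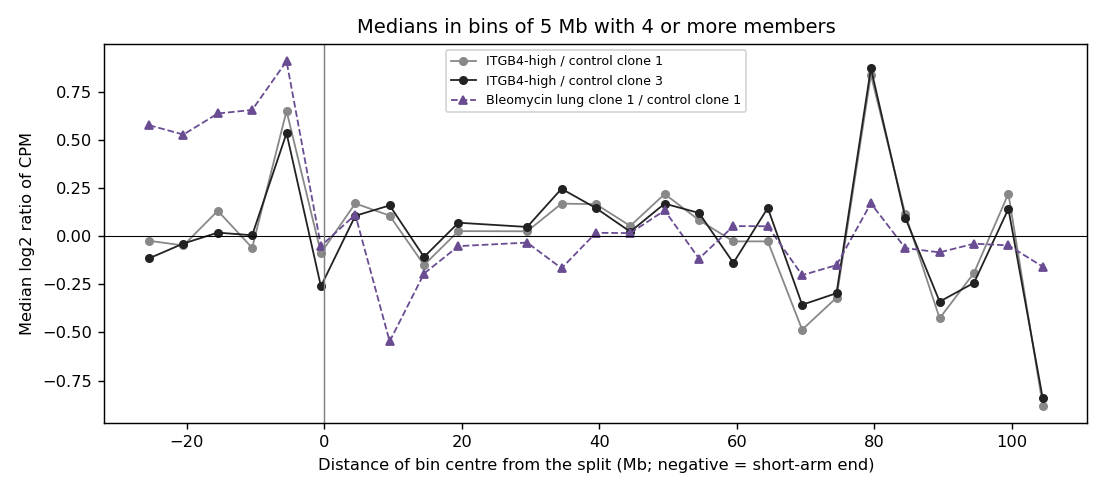
Median log2 ratio of CPM (vertical axis) in bins of 5 Mb with 4 or more members, by distance of the bin centre from 28 Mb (horizontal axis), for ITGB4-high cells over each control and for the bleomycin library over control clone 1. The ITGB4-high lines rise to 0.84 and 0.87 in 1 long-arm bin and end at -0.88 and -0.84, while the bleomycin line is high on the left only.

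Above 28 Mb, on both arms, the lists of genes by function are given next. Of all members there, 78.2% were higher in LM2 clone 1, 46.8% after bleomycin and 48.8% for LM2 clone 3. The counts of each list are to be read beside these shares. Of 9 neighbours of the cyclin D gene, 8 were higher in LM2 clone 1 (median 0.65) and 6 after bleomycin (median 0.05). The actin regulator CTTN was at 363 CPM in LM2 clone 1 against 221 and 257 in controls, 197 in LM2 clone 3 and 230 with bleomycin, and the death-receptor adaptor FADD at 35.1 against 19.4 and 18.1, 20.4 and 20.2. All 18 RNA-processing genes above the split were higher in LM2 clone 1 (median 0.44), and 10 of 18 after bleomycin (median 0.03). Of 12 DNA damage genes 8 were higher in LM2 clone 1 (median 0.45), among them CHEK1 at 98.04 CPM against 73.2 and 74.3, and of 10 Hippo and apoptosis genes 9 were (median 0.57), among them YAP1 at 516 against 390 and 396 and BIRC2 at 382 against 176 and 174. Of 15 adhesion and actin genes 11 were higher in LM2 clone 1 (median 0.50), 2 in LM2 clone 3 (-0.38) and 4 after bleomycin (-0.16). In these lists 0 members passed over all genes in edgeR in LM2 or bleomycin cells against control. The most abundant genes did not all share the shift. HSPA8, the constitutive heat shock cognate, was at 733 CPM in LM2 clone 1, below the controls at 1501 and 1815, and ferritin heavy chain FTH1 was at 2137 in LM2 clone 1 and 2106 with bleomycin against 607 and 588.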

How the data were processed

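Poly(A) RNA of 6 SUM159 libraries was sequenced with strand-marked kits, per the labels' protocols. Per the submitters' processing notes, the aligner was STAR 2.7.1a and the build hg38. The read counter, annotation and strand setting were not given in the sources used here. The deposited values are raw counts per gene, in 1 column for each library. Of 58336 identifiers, 58216 matched GENCODE release 29 (GRCh38), which gave symbols, gene types and coordinates. TMM-scaled CPM was derived from these counts. Differences were tested in R 4.3.3 with the quasi-likelihood test of edgeR 4.0.16 (robust), after filterByExpr at a minimum count of 10 (15673 genes), with Benjamini-Hochberg adjustment over all of them and a threshold of 0.05. One model held 4 groups (2 residual degrees of freedom), and another joined all lung cells (3 residual degrees of freedom). Groups of 1 library borrow their spread from the groups of 2, and whether the clones count as separate cultures is not stated, so p-values measure only how these libraries vary. The script was tested on simulated data that varied less between libraries than these and held no LM2 pair that differed widely. That run does not show how often real changes would pass here. Alternatives used DESeq2 1.42.0, limma 3.58.1 (voom), RLE factors, and other filters, splits and minimums. Clone numbers pair the libraries, since the titles give the same clone, and the LM2 clone 3 library rests on its title and description. The clone differences in controls and in LM2 cells had a Pearson correlation of 0.01 across 15673 genes, which are not independent replicates. Genes were named by level, nearness to 28 Mb, size of change or membership of 8 lists. SVIP, the genes added by the replicate block and the ITGB4-high stretches were picked after their values were seen. The members, lists and tests were chosen with earlier results of these data known.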

Additional observations from a re-analysis of the deposited data

Results flagged for a closer look

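The LM2 libraries differed on chromosome 11: clone 1 stood higher, and clone 3 stayed near the median of all genes tested, which was -0.02. Below 28 Mb the median log2 ratio over the own control was 0.49 in clone 1 and -0.0686 in clone 3, and above it 0.48 and -0.00357. With 1 library a clone the difference was not tested. Within clone 1, members above 28 Mb had a median of -0.0364 with bleomycin where LM2 gave 0.48, and this difference was not tested either.

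Chromosome 11 genes outside the members (non-coding genes, genes under 8 CPM and those left out by name, where tested) were not used to describe the sides. Below 28 Mb, 92 such genes had a median of 0.42 in the bleomycin library over control clone 1, with 69 higher (beside 48.1% of all genes tested), and 249 above it had a median of 0.01. The same 92 genes had a median of 0.03 in control clone 3 over clone 1. In LM2 clone 1 these genes had medians of 0.08 and 0.07 on the 2 sides, lower than in the members.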

How the results depend on the processing

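Under RLE factors, library totals, a pseudocount of 2 CPM, minimums of 4 and 16 CPM, splits at 24 and 32 Mb and the left-out genes put back, the bleomycin library kept a median of 0.56 to 0.60 below and -0.0649 to -0.01 above 28 Mb, and LM2 clone 1 one of 0.37 to 0.52 and 0.35 to 0.51. Signs changed among these settings only where the value was near 0, in LM2 clone 3 above the split, ITGB4-high cells below it and the difference between the sides in LM2 clone 1. Library totals moved the median of all genes tested in LM2 clone 1 from -0.04 to -0.15, and the sides with it. The ratio of summed CPM moved the difference between the sides to 0.53 in the bleomycin library, to 0.0705 in LM2 clone 1, and to the other sign in ITGB4-high cells, 0.0436 over control clone 1 and 0.0262 over control clone 3.

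Counts of called members were unstable. In the order LM2, bleomycin, ITGB4-high and all lung cells against control they were 0, 0, 1 and 1. Of all genes, 0.0319%, 0.0255%, 0.0893% and 0.498% were called. With no filter the members called were 59, 52, 95 and 61, beside 5.25%, 4.3%, 8.14% and 6.47% of the 33274 genes tested. DESeq2 gave 15, 19, 63 and 34, beside 4.48%, 3.94%, 11% and 7.95% of all genes. The replicate block gave 1, 1, 15 and 1, beside 0.23%, 0.051%, 2.32% and 0.249%. RLE factors gave 5 in ITGB4-high cells, beside 0.472% of all genes. By limma-voom 0 were called there and 2 in all lung cells, beside 0.0128% and 0.619%. A minimum of 16 CPM gave 0 in all lung cells, beside 0.498%. With 1 library left out in turn the ranges were 0 to 358, 0 to 190, 0 to 263 and 0 to 39, the lowest without either control clone and the highest without an LM2 library. Apart from the construction of the no-filter setting, the cause was not tested. With 1 library in the bleomycin and ITGB4-high arms, the lone sample is assumed to vary like the other groups.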
